A study of Homo sapiens with 4 samples.

Results

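The genes examined here are the 7 that carry the type I interferon signal from the cell surface to the nucleus and shut it down again: IFNAR1, IFNAR2, JAK1, TYK2, STAT2, IRF9 and USP18. Their accessibility was measured by ATAC-seq, which reads out where a transposase can enter the chromatin, in TMD8, an established lymphoma line of the activated B cell (ABC) type. The 2 shIRF4 libraries came from TMD8 cells carrying a short hairpin RNA against IRF4, and the 2 control libraries from TMD8 cells carrying a scrambled hairpin. The hairpin is given by the titles and the design text, whereas the library names read siIRF4, and this difference could not be resolved from the labels. How long the hairpin acted, its vector, and whether libraries of a group came from separate cultures are not given in the sources used here, so p-values measure the spread between these libraries, which may be technical. Read counts were deposited for 73135 intervals of merged peaks (hg38). An interval was taken for a gene when its midpoint lay in the gene body, and otherwise when that gene's end was the nearest protein-coding one within 100 kb. This gave 33 of the 73135 intervals, of which all 33 passed the filter on low counts, in or near 6 of the 7 genes. There were 15 for JAK1, 6 each for IFNAR1 and USP18, 3 for IFNAR2, 2 for TYK2, 1 for IRF9 and 0 for STAT2.

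Type I interferons bind a receptor made of the chains IFNAR1 and IFNAR2. The kinase TYK2 sits on IFNAR1 and JAK1 on IFNAR2, and together they phosphorylate STAT2, which joins IRF9 in the factor ISGF3. ISGF3 binds interferon-stimulated response elements and switches on antiviral genes, as well as IRF9, STAT2 and USP18 themselves, and USP18 protein binds IFNAR2 and damps the signal. IRF4 belongs to the same family of DNA-binding proteins as IRF9, and B cells use it for plasma cell differentiation.

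Promoter sequences from RefSeq (GRCh38.p14) were available for 5 of the 7 genes, in 8 windows that run from 250 bases before to 50 bases after a start. No entry was held for IFNAR2 and USP18. The windows were searched on both strands for the interferon-stimulated response element core (GAAA, any 2 bases, GAAA), the ETS-IRF composite (GGAA, any 2 bases, GAAA), the STAT site TTCNNNGAA and the AP-1 site TGANTCA, and, chosen after the windows had been read, for GAANNGAAA, a looser interferon element that lies within the ETS-IRF composite. The response element core was found in 3.57% of all 34943 RefSeq windows, the ETS-IRF composite in 2.82%, TTCNNNGAA in 7.66%, TGANTCA in 7.72% and GAANNGAAA in 7.66%. Of the 8 windows, only that of IRF9 held any match, and it held 2: 1 to TTCNNNGAA and 1 to GAANNGAAA, the pattern chosen afterwards. No window held the response element core, the ETS-IRF composite or TGANTCA. Whether 2 matches in 8 windows exceed the shares above was not tested. The 250 bases upstream of 4 starts are shown because they contrast IRF9, whose interval was higher, with STAT2. They also contrast an inner JAK1 start, whose interval was also higher, with the upstream JAK1 start. A second inner JAK1 start, at 64966936 under the same interval, is not printed. Capitals mark the matches, TTCTGGGAA at -63 and GAACTGAAA at -36 from the IRF9 start.
IRF9 (chr14:24161015-24161264, plus strand): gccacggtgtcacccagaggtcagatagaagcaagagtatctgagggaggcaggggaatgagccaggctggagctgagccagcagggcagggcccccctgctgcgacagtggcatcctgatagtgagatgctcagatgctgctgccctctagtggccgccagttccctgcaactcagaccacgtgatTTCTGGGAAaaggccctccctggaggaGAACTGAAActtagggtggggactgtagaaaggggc
STAT2 (chr12:56360108-56360357, minus strand): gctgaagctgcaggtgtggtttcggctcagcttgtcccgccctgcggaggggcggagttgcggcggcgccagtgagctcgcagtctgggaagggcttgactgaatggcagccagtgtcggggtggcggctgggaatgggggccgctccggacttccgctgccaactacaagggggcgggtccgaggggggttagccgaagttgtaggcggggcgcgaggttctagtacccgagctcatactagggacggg
JAK1, inner start (chr1:64966550-64966799, minus strand): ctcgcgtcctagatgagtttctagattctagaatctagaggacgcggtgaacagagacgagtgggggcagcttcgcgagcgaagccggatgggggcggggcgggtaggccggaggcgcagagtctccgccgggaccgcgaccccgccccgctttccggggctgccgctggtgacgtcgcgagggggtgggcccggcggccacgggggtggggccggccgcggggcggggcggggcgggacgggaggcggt
JAK1, upstream start (chr1:65067747-65067996, minus strand): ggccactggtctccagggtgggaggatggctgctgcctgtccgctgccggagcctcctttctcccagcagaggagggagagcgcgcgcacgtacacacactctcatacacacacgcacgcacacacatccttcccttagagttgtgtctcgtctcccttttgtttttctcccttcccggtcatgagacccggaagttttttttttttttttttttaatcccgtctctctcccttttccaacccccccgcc
A match describes the letters only and shows no binding.

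The starts of IRF9 and USP18, the DNA-binding subunit and the inhibitor of the pathway, were more accessible in shIRF4 cells. The interval over the inner JAK1 starts was also higher, by less (log2 fold change 0.23, adjusted p = 0.0293, edgeR). None of these start calls passed in DESeq2 (adjusted p = 0.195 for IRF9, 0.0830 for USP18 and 0.450 for JAK1). The starts of the receptor chains, TYK2 and STAT2 and the upstream start of JAK1 did not pass in edgeR. Away from gene ends, single intervals went both ways, the largest being a loss and a gain within IFNAR2. Of the 33 intervals, 7 were higher in shIRF4 (adjusted p under 0.05, edgeR), where 7.26% of all 73028 tested intervals were higher. Another 7 were lower, against 15.5% of all tested intervals. The remaining 19 did not pass. The median log2 fold change of the 33 intervals was 0.05 and that of all tested intervals 0.01. In all, 42.4% of the 33 were called, against 22.8% of all tested intervals, which describes genes chosen with earlier results known. Among called intervals genome-wide, 68.2% were lower with TMM scaling and 58.0% with scaling by library totals alone. Under library totals 9.83% of all tested intervals were higher and 13.6% lower, and at these genes 8 were higher and 6 lower.

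Groups did not overlap in CPM (the read count divided by the TMM-scaled library size) at 26 of the 33 intervals, against 59% of all tested intervals, so the separation of 2 libraries from 2 is common in these data. Each called interval was among those 26. DESeq2 called 4 of the 14: the loss and the gain in IFNAR2, and the JAK1 losses at 64882958 and 64960536. The other 10 calls rest on edgeR. Against a 1.5-fold change, edgeR called 3 of the 14: the loss and the gain in IFNAR2 (adjusted p = 0.00296 and 0.0349) and the JAK1 loss at 64882958 (adjusted p = 0.0435). The 10 alternative fits counted per interval below test against no change and do not include this stricter test. In bulk libraries, a site open in fewer cells and a site less open in every cell cannot be told apart.

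**Figure D1:**
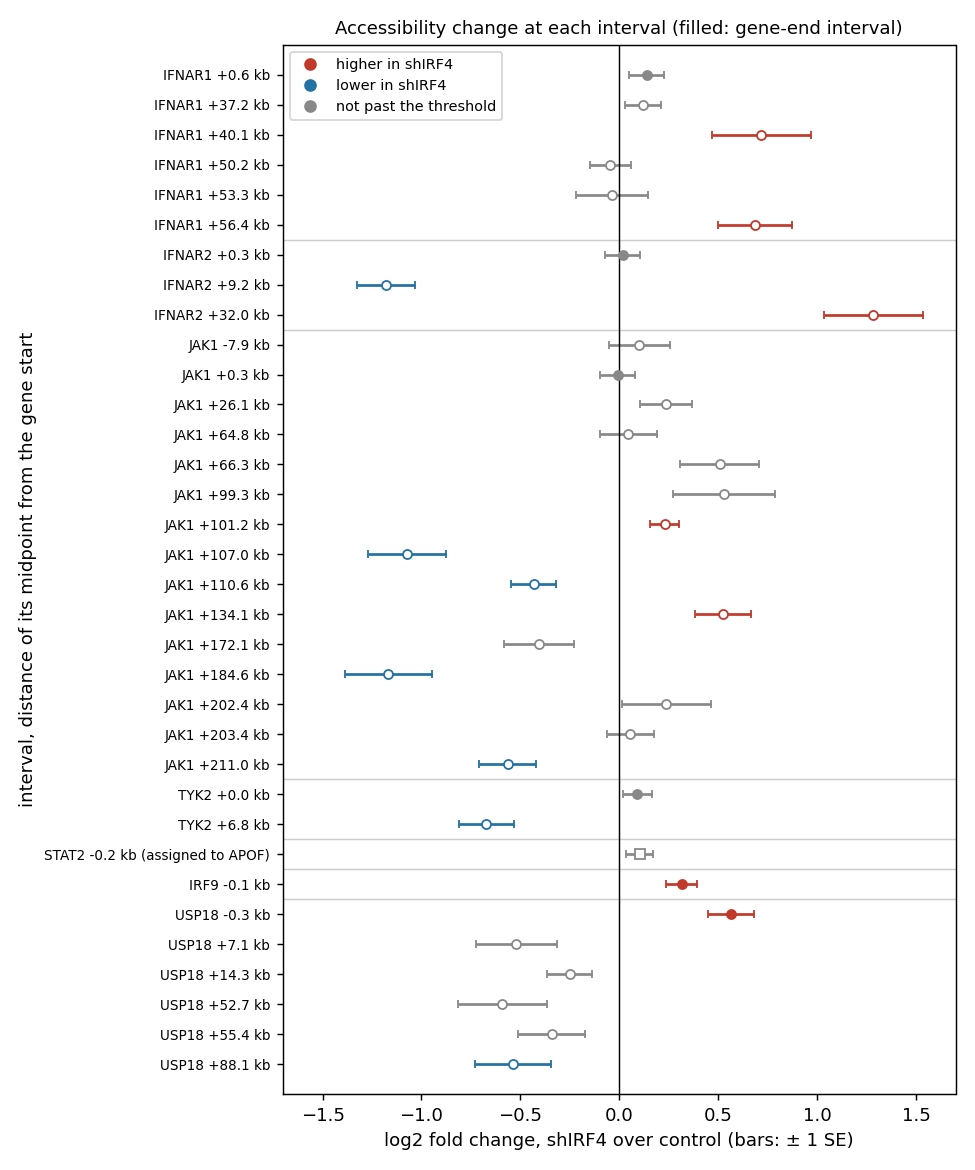
Log2 fold change of shIRF4 over control (x axis, bars ± 1 SE, edgeR) at the 33 intervals and at the interval over the STAT2 start, by gene and by distance in kb of the midpoint from the gene start (for IFNAR2 and USP18, from the gene end with the lower coordinate). Red intervals were higher and blue ones lower in shIRF4, 7 each, with IFNAR2 holding both extremes (1.28 and -1.18); filled circles are gene-end intervals.

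Gene-end intervals, whose midpoint lies within 1 kb of either end of a gene, numbered 6 at these genes and all lay at the known or lower-coordinate start. Of these, 2 were higher and 0 lower in shIRF4, where 4.86% of all 12786 gene-end intervals were higher and 5.36% lower. The median gene-end interval of all genes changed by 0.03. USP18, at 0.56, lay at percentile 98.2 of all gene-end intervals, and IRF9, at 0.32, at percentile 94.7. IFNAR1 lay at percentile 79.3, TYK2 at 68.0, IFNAR2 at 45.5 and JAK1 at 37.8. Of the other 27 intervals, 5 were higher and 7 lower, against 7.77% higher and 17.7% lower among all intervals away from gene ends.

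**Figure D2:**
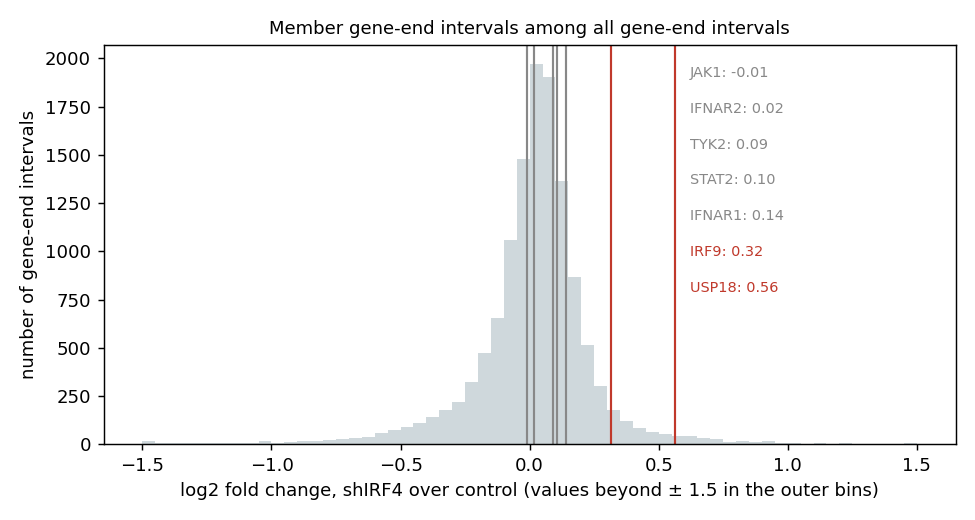
Distribution of the log2 fold change (x axis, shIRF4 over control) over all 12786 gene-end intervals (y axis, number of intervals), with lines for the gene-end intervals of the 6 genes and for the interval over the STAT2 start. The lines of IRF9 (0.32) and USP18 (0.56), in red, stand to the right of most gene-end intervals, and the others lie between -0.01 and 0.14.

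Per kb of interval, openness at the starts differed several-fold between the genes. It was highest over the STAT2 start, at 53.6 ± 2.65 CPM per kb in shIRF4 and 50.1 ± 2.02 CPM per kb in control (SD, n = 2 each, as throughout). TYK2 followed with 31.8 ± 0.0713 CPM per kb in shIRF4 and 29.9 ± 0.411 CPM per kb in control. IRF9 had 27.4 ± 0.590 CPM per kb in shIRF4 and 22.04 ± 1.36 CPM per kb in control. The interval over the inner JAK1 starts had 26.4 ± 1.64 CPM per kb in shIRF4 and 22.7 ± 0.204 CPM per kb in control. IFNAR1 (19.1 ± 2.41 in shIRF4, 17.1 ± 0.777 in control) and IFNAR2 (18.3 ± 0.538 in shIRF4, 18.1 ± 1.42 in control) did not differ beyond their spread. USP18 had 16.8 ± 0.626 CPM per kb in shIRF4 and 11.4 ± 0.455 CPM per kb in control, and the upstream JAK1 start had 15.0 ± 0.980 CPM per kb in shIRF4 and 15.2 ± 0.253 CPM per kb in control. USP18 thus stood above the upstream JAK1 start in shIRF4 cells and was the lowest of these starts in control cells.

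IFNAR1, the receptor chain that holds TYK2, lies on chromosome 21 (33324395 to 33359864). Its start is covered by an interval at 33324149 to 33325884 with 30.2 and 36.1 CPM in the shIRF4 libraries, against 30.6 and 28.7 CPM in the control libraries. The groups overlapped and the difference did not pass (log2 fold change 0.14, SE 0.09, adjusted p = 0.291, edgeR); without shIRF4 replicate 1 it was 0.30 and passed (adjusted p = 0.0345). The other 5 intervals lay outside the gene, beyond its far end and towards IFNGR2, which encodes a chain of the interferon gamma receptor. Of these, 2 were higher in shIRF4, where 7.77% of all intervals away from gene ends were higher. The interval at 33380570 to 33380951, 20896 bp past the gene, had 7.002 and 5.56 CPM in shIRF4, against 4.36 and 3.72 CPM in control. Both shIRF4 libraries stood above both control libraries (0.69, SE 0.19, adjusted p = 0.0101, edgeR). Leaving out control replicate 2 gave 0.57 (adjusted p = 0.132) and leaving out shIRF4 replicate 1 gave 0.48 (adjusted p = 0.225), so that neither passed. The interval at 33364373 to 33364574, a short one of 202 bp, had 52 and 32 reads in shIRF4, against 21 and 26 reads in control, or 2.82 and 3.49 CPM in shIRF4, against 1.76 and 1.93 CPM in control. It passed narrowly (0.72, SE 0.25, adjusted p = 0.0420, edgeR) and was lost whichever library was left out (0.60 to 0.92). The remaining 3 intervals changed by -0.04 to 0.12 and did not pass.

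IFNAR2, the chain that holds JAK1 and is bound by USP18, starts at 33229938 on chromosome 21 and ends at 33265664. Its body is shared with the readthrough locus IFNAR2-IL10RB, which gives both the same start. The gene-end interval at 33229562 to 33230972 had 26.4 and 25.3 CPM in shIRF4, against 24.2 and 27.0 CPM in control. The shIRF4 values fell between those of control (0.02, SE 0.09, adjusted p = 0.918, edgeR). Inside the gene, 9.18 kb from that start, the interval at 33238671 to 33239561 had 5.10 and 5.67 CPM in shIRF4, against 11.2 and 12.7 CPM in control. Both shIRF4 libraries lay below both control libraries, and this was the largest loss of the 33, 2.26-fold (-1.18, SE 0.15, adjusted p = 3.57e-06, edgeR). Near the far end of the same gene, the interval at 33261705 to 33262129 had 72 and 52 reads in shIRF4, against 23 and 24 reads in control, or 3.91 and 5.67 CPM in shIRF4, against 1.93 and 1.79 CPM in control. It was the largest gain of the 33, 2.44-fold (1.28, SE 0.25, adjusted p = 0.000584, edgeR), at percentile 99.6 of all tested intervals. Both calls held in each of the 10 alternative fits, at -1.26 to -1.07 for the loss and 1.07 to 1.62 for the gain with 1 library left out. With the reads of its intervals summed, IFNAR2 had 39.7 ± 1.14 CPM in shIRF4 and 43.9 ± 3.28 CPM in control. CPM of gene sums are relative to the reads in intervals assigned to a gene, so they are not sums of the interval CPM. The difference did not pass (-0.15, SE 0.07, adjusted p = 0.137, edgeR) and was -0.18 with shIRF4 replicate 2 left out.

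The 2 receptor genes belong to a cluster with IL10RB, a chain of the interleukin 10 and interferon lambda receptors, and IFNGR2. Across the 20 intervals from IFNAR2 to just past IFNGR2, 5 were higher in shIRF4 and 5 lower, to be read beside 7.26% higher and 15.5% lower among all tested intervals. At IL10RB, 1 of 5 was higher and 2 were lower, and at IFNGR2 1 of 5 was higher and 2 were lower. The IFNGR2 gain lay at 33401976 to 33402333, 728 bp before its start, with 4.18 and 4.69 CPM in shIRF4, against 2.68 and 2.45 CPM in control (0.76, SE 0.22, adjusted p = 0.0131, edgeR), and did not pass with control replicate 1 (0.83, adjusted p = 0.0523) or control replicate 2 (0.70, adjusted p = 0.124) left out. The intervals over the starts of IL10RB (0.09, SE 0.08) and IFNGR2 (0.05, SE 0.08) did not pass. Within 1 Mb of the IFNAR2 loss, the median change of the 72 other intervals was 0.08.

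**Figure D3:**
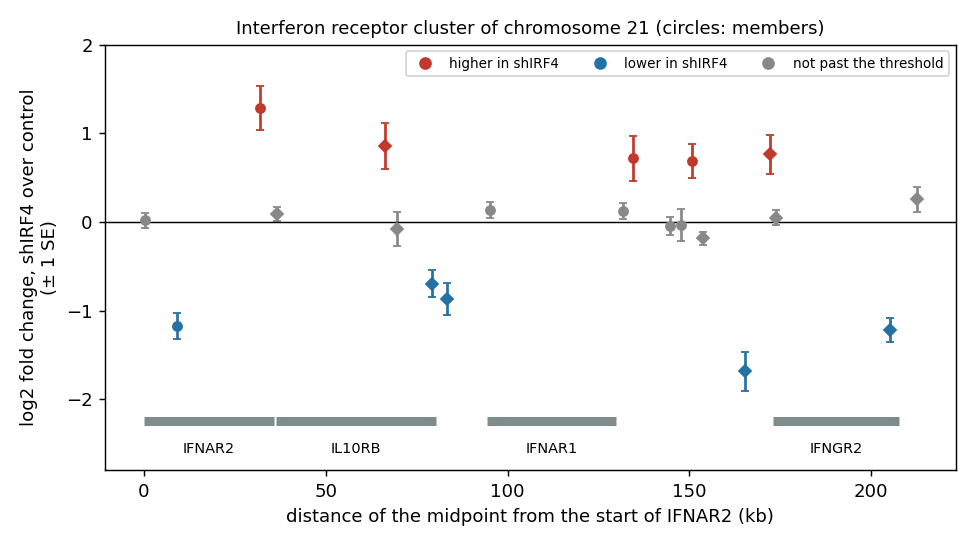
Log2 fold change of shIRF4 over control (y axis, ± 1 SE) at the 20 intervals of the receptor cluster on chromosome 21, by distance in kb from the start of IFNAR2 (x axis); grey bars mark gene bodies, circles the IFNAR1 and IFNAR2 intervals, diamonds their neighbours. Gains and losses, 5 each, are interspersed along the cluster, while the intervals over the 4 gene starts lie close to 0.

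JAK1, the kinase on IFNAR2 and on many other cytokine receptors, is the longest of these genes (chromosome 1, 64833229 to 65067746, minus strand). Its 15 intervals held 2 that were higher, 4 that were lower and 9 that did not pass. Among all tested intervals, 7.26% were higher and 15.5% lower. Over the upstream start, the interval at 65066605 to 65068321 had 26.9 and 24.5 CPM in shIRF4, against 26.4 and 25.8 CPM in control. The control libraries lay within the shIRF4 range (-0.01, SE 0.09, adjusted p = 0.963, edgeR). The more open interval lay in the gene body at 64965709 to 64967357, over 2 inner starts in RefSeq. It had 45.5 and 41.7 CPM in shIRF4, against 37.2 and 37.6 CPM in control, a rise of 1.17-fold (0.23, SE 0.07, adjusted p = 0.0293, edgeR). This small change did not pass with control replicate 1 left out (0.22, adjusted p = 0.195), nor with control replicate 2 (0.24, adjusted p = 0.152) or shIRF4 replicate 1 (0.17, adjusted p = 0.219) left out, nor with the control pair summed as 1 sample (0.22, adjusted p = 0.135).

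Just downstream of the inner starts the change ran the other way. At 64960536 to 64961057, JAK1 had 2.88 and 2.95 CPM in shIRF4, against 5.87 and 6.32 CPM in control, 2.10-fold lower (-1.07, SE 0.20, adjusted p = 0.000291, edgeR). Deeper in the gene, JAK1 at 64882958 to 64883372 had 2.28 and 2.07 CPM in shIRF4, against 5.29 and 4.69 CPM in control (-1.17, SE 0.22, adjusted p = 0.000388, edgeR). Both losses were called in each of the 10 alternative fits, and the groups lay well apart. Against a 1.5-fold change the one at 64960536 did not pass (adjusted p = 0.0597). Another, wider interval at 64956476 to 64957791 had 13.5 and 16.7 CPM in shIRF4, against 19.0 and 20.7 CPM in control (-0.43, SE 0.11, adjusted p = 0.00640, edgeR); leaving out control replicate 2 (-0.36, adjusted p = 0.0901) or shIRF4 replicate 1 (-0.24, adjusted p = 0.238) ended the call. Nearest the 3′ end, the interval at 64856437 to 64856981 had 7.11 and 6.11 CPM in shIRF4, against 10.2 and 9.75 CPM in control (-0.56, SE 0.14, adjusted p = 0.00629, edgeR), and did not pass with control replicate 1 left out (-0.53, adjusted p = 0.0562).

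Among these losses lay a JAK1 gain at 64933353 to 64933977, with 10.7 and 9.49 CPM in shIRF4, against 6.96 and 7.29 CPM in control (0.53, SE 0.14, adjusted p = 0.00886, edgeR). The shIRF4 libraries stood above control, but leaving out control replicate 1 (0.49, adjusted p = 0.0769) or shIRF4 replicate 1 (0.42, adjusted p = 0.140) ended the call. The 9 JAK1 intervals that did not pass changed by -0.41 to 0.53. The one at 65001265 was called higher when libraries were scaled by totals alone (0.56, adjusted p = 0.0446). With all intervals summed, and on the CPM scale of gene sums, JAK1 had 178.3 ± 6.04 CPM in shIRF4 and 182.05 ± 2.63 CPM in control. The difference did not pass (-0.03, SE 0.05, adjusted p = 0.735, edgeR).

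**Figure D4:**
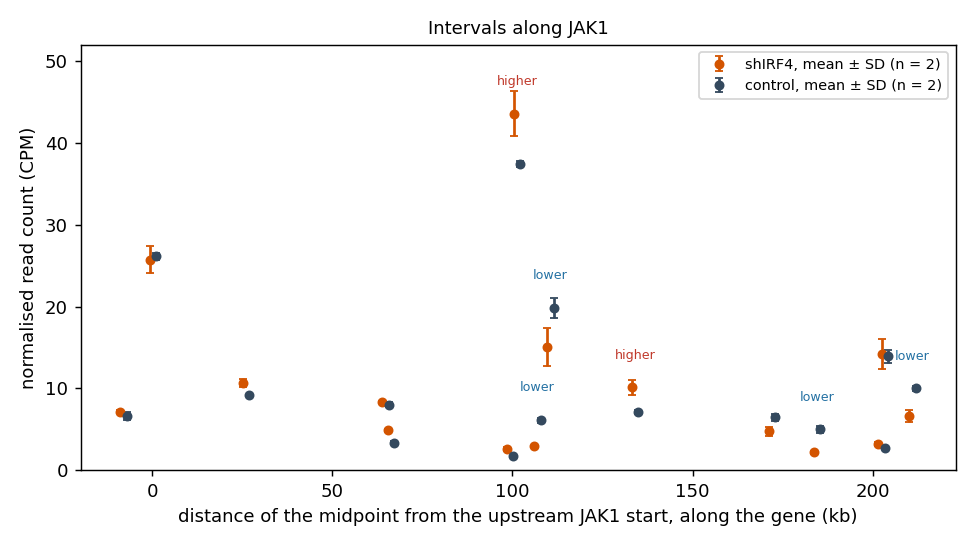
Mean CPM ± SD (y axis, n = 2 libraries per group) at the 15 JAK1 intervals by distance in kb from the upstream start along the gene (x axis; the groups are set slightly apart for legibility). Called intervals are marked higher or lower: all 6 lie past 100 kb, from the inner starts to the 3′ part of the gene. Those of the first 100 kb did not pass. Among these, log2 fold changes of 0.51 at 66.3 kb and 0.53 at 99.3 kb were about as large as the called gain at 134 kb (0.53).

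TYK2, the kinase on IFNAR1, lies on chromosome 19 (10350533 to 10380572, minus strand) and had an interval over its start and one in its body. Over the start, at 10379954 to 10381238, TYK2 had 40.9 and 40.8 CPM in shIRF4, against 38.8 and 38.0 CPM in control. The libraries of each group were close together and did not overlap, yet the difference did not pass (0.09, SE 0.07, adjusted p = 0.413, edgeR). In the body, 6.83 kb from the start, the interval at 10373263 to 10374222 had 7.82 and 7.64 CPM in shIRF4, against 13.8 and 11.1 CPM in control. It was 1.59-fold lower (-0.67, SE 0.14, adjusted p = 0.00102, edgeR), with -0.83 to -0.52 and the call kept whichever library was left out, though not in DESeq2 (adjusted p = 0.0621) or against a 1.5-fold change (adjusted p = 0.953). The 152 other tested intervals within 1 Mb had a median change of 0.06.

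STAT2, the interferon-specific STAT and partner of IRF9, received no interval, because the one over its start has its midpoint nearer to the end of APOF, an apolipoprotein gene next to it. That interval on chromosome 12 (56359822 to 56360893) had 59.4 and 55.4 CPM in shIRF4, against 55.2 and 52.1 CPM in control. The groups did not overlap by a small margin, and the difference did not pass (0.10, SE 0.07, adjusted p = 0.299, edgeR). It was the most open of the starts described here, and it is counted in none of the totals for the 33 intervals.

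IRF9, which gives ISGF3 its DNA-binding specificity, had a single interval on chromosome 14 (24160368 to 24161887), over its start at 24161265 and the far end of the neighbouring gene RNF31, a ubiquitin ligase gene. IRF9 had 42.3 and 41.0 CPM in shIRF4, against 32.05 and 35.0 CPM in control. Both shIRF4 libraries lay above both control libraries, and the interval was 1.24-fold higher (0.32, SE 0.08, adjusted p = 0.00422, edgeR). Leaving out control replicate 1 ended the call (0.25, adjusted p = 0.118), as did DESeq2 (0.32, adjusted p = 0.195), and it held in the other 8 of the 10 alternative fits; it did not pass against a 1.5-fold change. The interval holds the promoter printed above, with its STAT-type match and its match to the looser pattern chosen after the windows were read. The response element core and the ETS-IRF composite, which were planned, were not found in that promoter. Of the 6 genes tested as sums of their intervals, IRF9 alone passed (0.30, SE 0.07, adjusted p = 0.00440, edgeR; 6.9% of 16175 genes were higher and 13.5% lower), and its sum is this 1 interval. The sum did not pass with control replicate 1 left out (0.24, adjusted p = 0.0707).

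USP18, the ISG15-removing protease that also blocks the receptor, lies on chromosome 22 (18150170 to 18177397). Over its lower-coordinate end, the interval at 18149420 to 18150320 had 15.5 and 14.7 CPM in shIRF4, against 9.98 and 10.6 CPM in control. Both shIRF4 libraries were well above control, 1.48-fold on average (0.56, SE 0.12, adjusted p = 0.00103, edgeR). The rise was 0.53 to 0.61 with 1 library left out and was called each time, while DESeq2 gave an adjusted p = 0.0830 and it did not pass against a 1.5-fold change. All 5 other USP18 intervals had negative fold changes, of which 1 passed, where 17.7% of all intervals away from gene ends were lower. The passing interval, at 18238177 to 18238380 and 60881 bp beyond the gene, had 3.53 and 3.93 CPM in shIRF4, against 5.54 and 5.13 CPM in control (-0.54, SE 0.19, adjusted p = 0.0472, edgeR). This narrow call ended with control replicate 1 (-0.48, adjusted p = 0.255), control replicate 2 (-0.59, adjusted p = 0.136) or shIRF4 replicate 1 (-0.43, adjusted p = 0.307) left out, with library totals (adjusted p = 0.0689), with the control pair summed (adjusted p = 0.0933) and with the replicate number as a block (adjusted p = 0.0573).

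The 4 USP18 intervals that did not pass changed by -0.59 to -0.25. The intervals at 18157026 (3.26 and 3.05 CPM in shIRF4, 4.36 and 4.76 CPM in control) and 18163801 (11.5 and 12.5 CPM in shIRF4, 14.0 and 14.2 CPM in control) lay in the gene body. Those at 18202826 and 18205348 lay in FAM230D, a long noncoding RNA gene, and were called lower with shIRF4 replicate 2 left out (-0.69, adjusted p = 0.0360, and -0.50, adjusted p = 0.0303). USP18 has a near-identical pseudogene copy, USP41P, on the same chromosome, and multi-mapping reads were kept, so reads at USP18 are less certain to be placed. Summed over its intervals, USP18 did not pass (-0.12, SE 0.06, adjusted p = 0.189, edgeR) except with shIRF4 replicate 2 left out (-0.17, adjusted p = 0.0426).

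**Figure D5:**
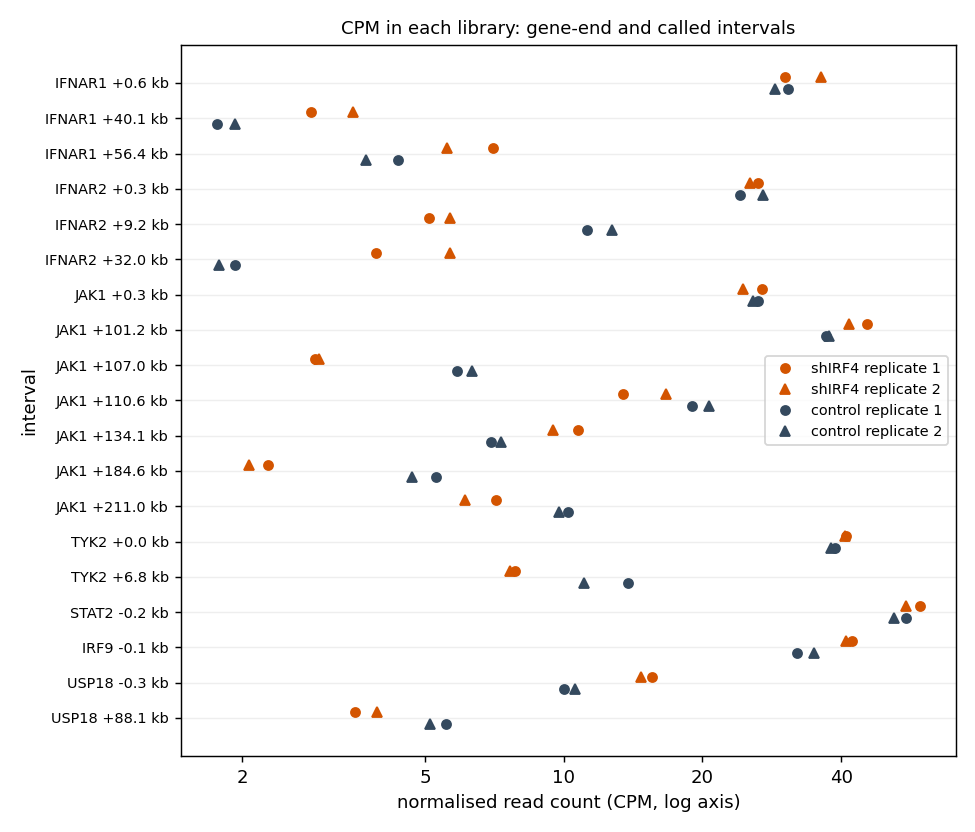
CPM (x axis, log scale) in each library, shIRF4 in orange above control in dark blue, at the gene-end and called intervals and at the interval over the STAT2 start, labelled by distance in kb from the gene start. Groups separate at every called interval, among them IRF9 and the USP18 start (14.7 to 15.5 CPM in shIRF4, 9.98 to 10.6 CPM in control). They also separate, without a call, at the starts of TYK2 and STAT2, and cross at the starts of IFNAR1 and IFNAR2 and the upstream start of JAK1.

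Other genes of the pathway, from lists chosen with earlier results of these data known, are given as counts of tested intervals, to be read beside 7.26% higher and 15.5% lower among all tested intervals. Of 75 intervals at 26 interferon-induced effector genes, 22 were higher and 9 lower (median 0.21), and at gene ends 12 of 23 were higher and 2 lower, against 4.86% higher and 5.36% lower among all gene-end intervals. IFIT3, an antiviral RNA-binding protein gene, rose at its gene end (1.66, SE 0.21), and ISG20, an antiviral exonuclease gene, fell at an interval near its end (-0.89, SE 0.12). In the ISG15 conjugation machinery that USP18 opposes, 3 of 10 intervals were higher and 1 lower. Gene-end intervals rose at UBA7, the activating enzyme (14.5 CPM in shIRF4, 9.90 CPM in control; 0.58, SE 0.13), though not with shIRF4 replicate 1 left out (0.42, adjusted p = 0.0791), and at TRIM25, a ligase (0.31, SE 0.09), though not with control replicate 1 left out (0.23, adjusted p = 0.234), while an interval in UBE2L6, the conjugating enzyme, fell (-1.56, SE 0.28).

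Of 54 intervals at 11 JAK, STAT and receptor genes of related pathways, 5 were higher and 9 lower (median 0.05), with a fall inside IFNGR2 (-1.22, SE 0.14) beside the gain before its start given above, a fall near STAT6, the interleukin 4 factor (-1.08, SE 0.15), and a rise near STAT4 (1.09, SE 0.27) that did not pass with control replicate 2 left out (0.96, adjusted p = 0.0647). Negative regulators had 3 of 94 higher and 17 lower (median -0.08), among them an interval in PIAS1, a SUMO ligase gene, that fell (-2.16, SE 0.26). At PTPN6, the SHP-1 phosphatase gene, a gene-end interval rose, with 97.4 CPM in shIRF4 and 65.5 CPM in control (0.57, SE 0.06). It runs from 6956825 to 6964301, far longer than the median interval of 552 bp, so its CPM cannot be set beside those of short intervals. Sensing and induction genes had 2 of 43 higher and 6 lower (median 0.00), with a rise near IRF1 (0.38, SE 0.08) and a fall in MAVS, the RIG-I adaptor gene (-0.89, SE 0.15).

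Total counts over all intervals were 17954924 and 9112860 in the shIRF4 libraries and 12152153 and 13609123 in control. Gene-end intervals were present at 5 of 5 B cell markers, 2 of 5 T cell, 1 of 4 NK cell, 2 of 5 myeloid and 2 of 5 epithelial and fibroblast markers. The 5 B cell marker intervals did not pass (7.94 to 48.3 CPM per kb in shIRF4, 7.70 to 47.2 CPM per kb in control). Of the 7 at markers of other cells, that of CD3E, a T cell receptor chain gene, was higher (18.7 CPM per kb in shIRF4, 9.89 CPM per kb in control, adjusted p = 0.00485, edgeR), that of NCR1, an NK cell receptor gene, was lower (9.94 CPM per kb in shIRF4, 13.6 CPM per kb in control, adjusted p = 9.00e-05, edgeR), and 5 did not pass; the part of other cells in the results was not tested. At IRF4 itself, 2 of 15 intervals were lower and 0 higher, or 13.3% lower against 15.5% of all tested intervals, which does not measure its RNA. With 2 libraries a group, an exact permutation test of a single value cannot go below p = 0.333, so each p here rests on the spread shared across intervals.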

How the data were processed

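Raw read counts per merged peak interval were deposited by the authors, made with featureCounts 2.0.0 per the file headers: reads were reduced to their 5′ end, marked duplicates ignored, and multi-mapping reads kept. Ignoring duplicates caps counts of short, densely read intervals. The submitters' processing notes name hg38 as the build. The aligner, peak caller and any transposase shift are not given in the sources used here.

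All 73135 intervals were fitted together in edgeR 4.0.16 (R 4.3.3). filterByExpr removed 107 intervals, and TMM factors scaled the libraries. The quasi-likelihood F-test (glmQLFit, legacy=FALSE, two-sided) had the group as its only term, with Benjamini-Hochberg adjustment over 73028 intervals and a threshold of 0.05. The SE is the log2 fold change divided by the square root of F. Gene sums were fitted likewise over 16175 genes, with library totals and TMM factors taken from the assigned intervals only. DESeq2 1.42.0, other scalings, no filter, a replicate block, left-out libraries, a 1.5-fold threshold and other assignments were alternatives. Midpoints in several gene bodies went to the shortest one. Described in full are all called intervals and all gene-end intervals of the 7 genes, and of the other pathway genes some of those with the smallest p per list and direction. Of the JAK and STAT list, 1 gene is not reported here. The 7 genes and the lists were chosen with earlier results of these data known. The RefSeq gene table gives no exons, so introns and exons are not told apart.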

Additional observations from a re-analysis of the deposited data

How the results depend on the processing

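The count of all intervals called was 16649 in the main fit, 4566 in DESeq2 and 2887 against a 1.5-fold change, and it ranged from 9043 to 19997 when each library was left out in turn. Higher intervals at the 7 genes numbered 7 in the main fit, 1 in DESeq2, 1 against a 1.5-fold change and, leaving each library out, 3 to 6. Lower ones numbered 7, with 3 in DESeq2, 2 against a 1.5-fold change, 2 when gene bodies were ignored in the assignment and 5 to 9 leaving each library out. Gene sums called numbered 1, with 2 under library totals, 0 in DESeq2 and 0 to 3 leaving each library out (with IFNAR1 added at 0.18, adjusted p = 0.0136, when shIRF4 replicate 1 was left out). Over 19 intervals and 10 alternative fits against no change (190 values), 151 kept direction and side of the threshold, 33 lost the call, 1 gained it and 5 changed sign. The 19 intervals were the 14 called ones, the 4 gene-end intervals that did not pass and the interval over the STAT2 start. An interval without a call could not lose one, so all 33 lost calls fell on the 14. The sign changes were at starts near 0: JAK1 at 65066605 was 0.0401 under library totals and -0.0777 to 0.0428 leaving each library out, and IFNAR2 at 33229562 was -0.0591 to 0.102 leaving each library out. With the replicate number as a block, 7 were higher and 6 lower at the 7 genes; same-numbered libraries deviated together at r = -0.03, so the numbers were not taken as pairs. The cause of these differences was not tested, and the filter, DESeq2 size factors, a 50 kb limit and counting any body holding the midpoint left both counts within 1.5 times. In the shallowest library, of 9112860 reads in intervals, the short IFNAR1 interval at 33364373 held 32 reads.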
